A study of Homo sapiens with 4 samples.

Results

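The genes described here are 10 adaptor, kinase and regulator genes of Toll-like receptor signalling, MYD88, TIRAP, TICAM1, IRAK4, IRAK1, IRAK2, TRAF6, MAP3K7, TAB1 and TOLLIP, out of 27011 genes in the count table. They were taken by symbol for their known place around MYD88, and MYD88 itself was chosen by its measured difference between Helz-null and WT cells, so the values that follow for that contrast are a description and carry no test. Of the 10, 9 are among the 10978 genes tested and TICAM1 is not. RNA-Seq libraries were made from total RNA of untreated HEK293T cells, an established human embryonic kidney line, with 2 libraries from WT cells and 2 from a Helz-null line. The Helz-null cells are a single line, made by genome editing that shifts the reading frame of HELZ, which encodes a putative RNA helicase. The libraries are described as biological replicates, and any trait that the edited line has for another reason cannot be told apart from the loss of HELZ. In bulk RNA, fewer cells with a transcript and less transcript per cell cannot be told apart either.

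Toll-like receptors sense microbial molecules at the cell surface or in endosomes, and most of them, like the interleukin-1 receptor family, pass the signal on through the adaptor MYD88. MYD88 assembles the kinases IRAK4, IRAK1 and IRAK2, which engage the ubiquitin ligase TRAF6 and through it the kinase TAK1, encoded by MAP3K7, with its partner TAB1. From there the signal spreads to the IKK kinases and NF-kappaB and to the MAP kinases, while the adaptor TICAM1 (TRIF) links TLR3 and TLR4 to interferon regulatory factors. HEK293 cells are known for expressing few Toll-like receptors of their own, for which reason they serve as hosts for transfected ones.

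The promoter of MYD88, the member with the largest difference, is shown with that of TICAM1, the other member whose window held one of the motifs searched. The sequences are RefSeq windows on GRCh38.p14 from 250 bases before to 50 bases after the gene start, 5′ to 3′ on the strand of the gene. The MYD88 window is chr3:38138411-38138710 on the plus strand and the TICAM1 window is chr19:4831663-4831962 on the minus strand.
MYD88: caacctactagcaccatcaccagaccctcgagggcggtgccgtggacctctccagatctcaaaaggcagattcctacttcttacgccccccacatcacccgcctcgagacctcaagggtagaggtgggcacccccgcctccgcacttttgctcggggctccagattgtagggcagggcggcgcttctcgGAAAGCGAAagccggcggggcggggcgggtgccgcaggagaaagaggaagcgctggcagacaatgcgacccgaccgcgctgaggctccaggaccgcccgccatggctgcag
TICAM1: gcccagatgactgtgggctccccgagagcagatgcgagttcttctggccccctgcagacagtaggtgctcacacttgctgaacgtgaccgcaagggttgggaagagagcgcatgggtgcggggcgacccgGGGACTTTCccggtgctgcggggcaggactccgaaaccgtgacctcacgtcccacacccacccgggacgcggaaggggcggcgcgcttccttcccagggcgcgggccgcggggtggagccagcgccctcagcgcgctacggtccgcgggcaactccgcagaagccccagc
Capitals in the MYD88 window mark bases 190 to 198, the only match on either strand to GAAANNGAA, the core of the interferon-stimulated response element, and this motif was found in 8.11% of 35116 windows of that length. Capitals in the TICAM1 window mark bases 131 to 139, a match to the kappaB motif GGGACTTTC, found in 0.387% of all windows. The 2 motifs do not overlap in these windows. RefSeq windows were matched for 9 of the 10 genes, with TIRAP not among them, and the other 7 matched genes held neither motif. The motifs were chosen after the sequences had been seen, and a match describes letters in a window and not a bound site. The MYD88 window had a GC content of 65.7%, against a median of 58.7% over all windows.

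Library totals ranged from 41745401 to 70464140 counts, and 97.8% of the counts in each library fell in tested genes. HELZ, the edited gene at chr17:65066560-65242105 on the minus strand (GRCh37), was first examined as a check of the labels. It stood at 97.7 and 101.7 CPM (counts scaled to the size of the library) in WT and at 36.2 and 37.1 CPM in Helz-null cells, 36.7% of WT, and was called down with a log2 fold change (log2FC) of -1.44 (SE 0.042; edgeR quasi-likelihood test, Benjamini-Hochberg FDR 2.13e-27). The 9 markers of this cell line were detected and summed to between 1534 and 1623 CPM per library. Of 7 tested, 1 was called up and 3 down (14.3% up and 42.9% down), where 13.9% and 15.5% of all tested genes were called. NEFM was called up at a log2FC of 0.89, and KRT8 at -0.98, KRT18 at -0.16 and VIM at -0.14 were called down. LHX1 and PAX2, not tested, had Helz-null means 2.03-fold and 1.28-fold the WT means. The even sum thus covers shifts in both directions. The 12 immune cell markers summed to between 5.13 and 7.09 CPM, with MS4A1 and FCGR3A at 0 in all 4 libraries and PTPRC, which defines leukocytes, at 2 counts in WT replicate 1 and at 0 in the other 3 libraries.

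MYD88 was expressed at a low level in WT cells and much lower in Helz-null cells. The gene lies at chr3:38180043-38184515 on the plus strand (GRCh37), and no other annotated gene overlaps it. It was counted 430 and 265 times in the WT libraries and 37 and 78 times in the Helz-null libraries. These counts correspond to 6.70 CPM (95% Poisson interval 6.08 to 7.36) and 6.32 CPM (5.59 to 7.13) in WT replicates 1 and 2, and to 0.876 CPM (0.617 to 1.21) and 1.09 CPM (0.865 to 1.37) in Helz-null replicates 1 and 2. The intervals cover counting error only. Totals exceed the number of mapped reads given in the methods, so the mates of a pair may have been counted singly, and intervals are then too narrow and the floor stands for fewer fragments. With all counts divided by 2 the log2FC of MYD88 was -2.70. The groups stood far apart, and both Helz-null libraries remained above the 3 counts taken as the floor, which is between 0.0421 and 0.0716 CPM per library. Means were 6.51 ± 0.266 CPM for WT and 0.985 ± 0.155 CPM for the Helz-null libraries (n = 2, SD), which is 15.1% of WT or 6.61-fold lower, with a log2FC of -2.69 (SE 0.17). Replicates differed by 0.083 on the log2 scale in WT and by 0.32 in Helz-null cells. Among 10978 tested genes only DTX3, LINC00693, MGST1, CPS1-IT1 and UNCX had a lower log2FC, and CPS1-IT1 was counted 2 times in WT replicate 2 and 0 times elsewhere. By absolute size the log2FC of MYD88 ranked 10 among all tested genes, and under the alternatives tried it lay between -2.89 and -2.57.

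**Figure D1:**
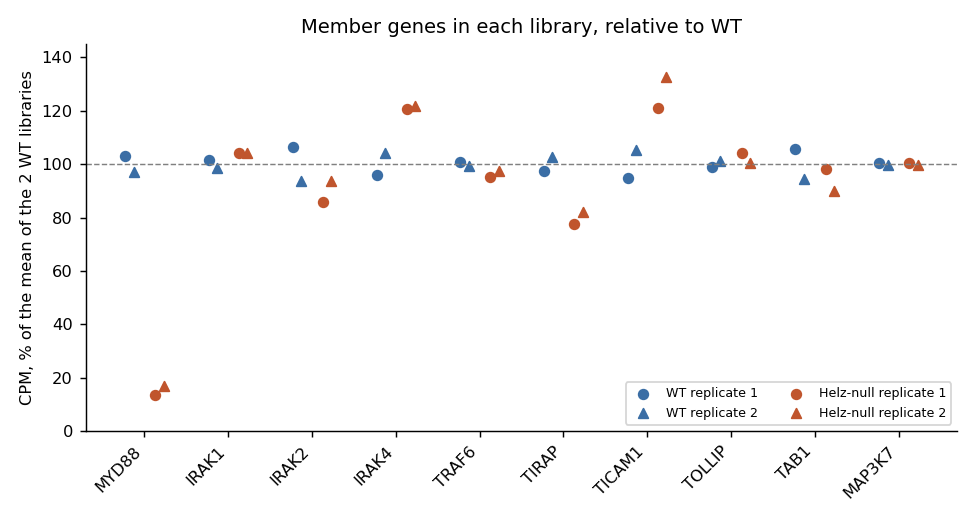
Level of the 10 genes in each library, as CPM in percent of the mean of the 2 WT libraries, with WT in blue, Helz-null in orange, replicate 1 as circles and replicate 2 as triangles. MYD88 stands alone near the bottom in both Helz-null libraries at 15.1% of WT on average, and the other 9 genes had Helz-null means between 79.7% and 126.7% of WT.

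Of the other 2 adaptors, TIRAP had lower and TICAM1 higher values in the Helz-null libraries, by far less than MYD88 and with TICAM1 not called where it was tested. TIRAP, which bridges MYD88 to TLR2 and TLR4 at the membrane (chr11:126152392-126168740, plus strand), had 14.9 and 15.7 CPM in WT and 11.9 and 12.6 CPM in Helz-null cells. The groups did not overlap, the Helz-null mean was 79.7% of WT, and the log2FC was -0.32 (SE 0.081). The antisense gene TIRAP-AS1 overlaps this locus, and as the use of strand in counting is not given in the sources used here, reads of the pair may be mixed. TICAM1 (chr19:4815944-4831724, minus strand), the adaptor of TLR3, had 3.71 and 4.13 CPM in WT and 4.73 and 5.19 CPM in Helz-null cells. Its groups did not overlap either, with a Helz-null mean 1.27-fold the WT mean. TICAM1 was outside the genes tested, and in a fit with a lower limit on counts its log2FC was 0.35 (SE 0.14) and it was not called.

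The IRAK kinases showed small differences. IRAK4 (chr12:44152747-44192110, plus strand), the first kinase to join MYD88, stood at 13.1 and 14.2 CPM in WT and at 16.5 and 16.6 CPM in Helz-null cells, 121.0% of WT, with a log2FC of 0.28 (SE 0.078). Both Helz-null libraries were above both WT libraries, and TWF1 on the opposite strand overlaps the locus. IRAK1 (chrX:153275957-153285353, minus strand), the kinase that carries the signal to TRAF6, had 669.8 and 650.7 CPM in WT and 687.8 and 688.3 CPM in Helz-null cells. Its groups were also separate, but by little, and the log2FC was 0.059 (SE 0.027). IRAK2 (chr3:10206603-10285429, plus strand), which sustains signalling after IRAK1, had 8.94 and 7.85 CPM in WT and 7.22 and 7.86 CPM in Helz-null cells. Its groups overlapped, with a log2FC of -0.16 (SE 0.11) that was -0.051 without WT replicate 1 and -0.24 without WT replicate 2.

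Downstream of the kinases, levels in the 2 cell lines lay close together. The ubiquitin ligase TRAF6 (chr11:36505319-36531822, minus strand) had 23.5 and 23.1 CPM in WT and 22.1 and 22.7 CPM in Helz-null cells, with a log2FC of -0.055 (SE 0.064). MAP3K7 (chr6:91223292-91296805, minus strand) had the most even values of the 10 genes, 96.0 and 94.996 CPM in WT and 95.7 and 95.3 CPM in Helz-null cells, and a log2FC of -0.00064 (SE 0.035). TAB1 (chr22:39795783-39833065, plus strand), which activates TAK1, had 69.4 and 62.1 CPM in WT and 64.6 and 59.2 CPM in Helz-null cells. The 2 WT libraries of TAB1 differed from each other by 0.16 on the log2 scale, more than the log2FC of -0.097 (SE 0.047) between the groups. TOLLIP (chr11:1295601-1330884, minus strand), which binds IRAK1 and dampens signalling, had between 33.9 and 34.7 CPM in WT and between 34.5 and 35.8 CPM in Helz-null cells, with a log2FC of 0.033 (SE 0.053).

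As a description only, at an FDR under 0.005 IRAK4 was on the called-up side and MYD88 and TIRAP on the called-down side, with 6 of the 9 tested genes not called. MYD88 passes 2 FPKM in the WT libraries alone (mean 2.27 FPKM, against 0.343 FPKM in Helz-null cells), and with a mean FPKM above 2 as the filter it is not tested. Over all tested genes 13.9% were called up and 15.5% down, 29.4% in either direction, beside 33.3% of the 9 genes. Since the genes were chosen with this contrast known, nothing is read from the count. Groups did not overlap, with higher values in Helz-null cells, for IRAK1, IRAK4 and TICAM1, where the share over all tested genes was 34.9%, and with lower values for MYD88, TIRAP and TRAF6, where that share was 35.7%. The median log2FC of the 9 genes was -0.055, beside -0.00091 over all tested genes. The call of IRAK4 was lost without WT replicate 1, Helz-null replicate 1 or Helz-null replicate 2 and with DESeq2 (log2FC 0.22 to 0.34 over the alternatives). That of TIRAP was lost without WT replicate 2, Helz-null replicate 1 or Helz-null replicate 2 and with DESeq2 (-0.36 to -0.28). TAB1, not called with 4 libraries, was called down without WT replicate 2, at a log2FC of -0.17, and stood at -0.011 without WT replicate 1 and at -0.030 without Helz-null replicate 2. IRAK1, not called with TMM scaling, was called up with library totals, at 0.093.

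Per length, the 10 genes spanned about 2 orders of magnitude in WT cells. As mean FPKM, which is CPM divided by the deposited gene width in kilobases, the WT order was IRAK1 at 184.9, MAP3K7 at 18.5, TAB1 at 17.0, TOLLIP at 8.88, TIRAP at 6.17, IRAK4 at 3.15, TRAF6 at 2.90, IRAK2 at 2.42, MYD88 at 2.27 and TICAM1 at 1.44. The WT libraries of neighbours in this order were separate except for IRAK2 and MYD88, whose values overlapped. In Helz-null cells MYD88 had 0.343 FPKM and stood last, below TICAM1 at 1.82 FPKM. The ratio of each partner to MYD88 in FPKM moved with it. IRAK4 was at 1.29 and 1.49 times the MYD88 level in the WT libraries and at 12.4 and 10.1 times in the Helz-null libraries, and IRAK1 at 80.4 and 82.8 times in WT and 631.7 and 506.0 times in Helz-null cells. TICAM1 was at 0.584 and 0.689 times the MYD88 level in WT and at 5.71 and 5.01 times in Helz-null cells, so that the order of these adaptors differed between the cell lines.

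**Figure D2:**
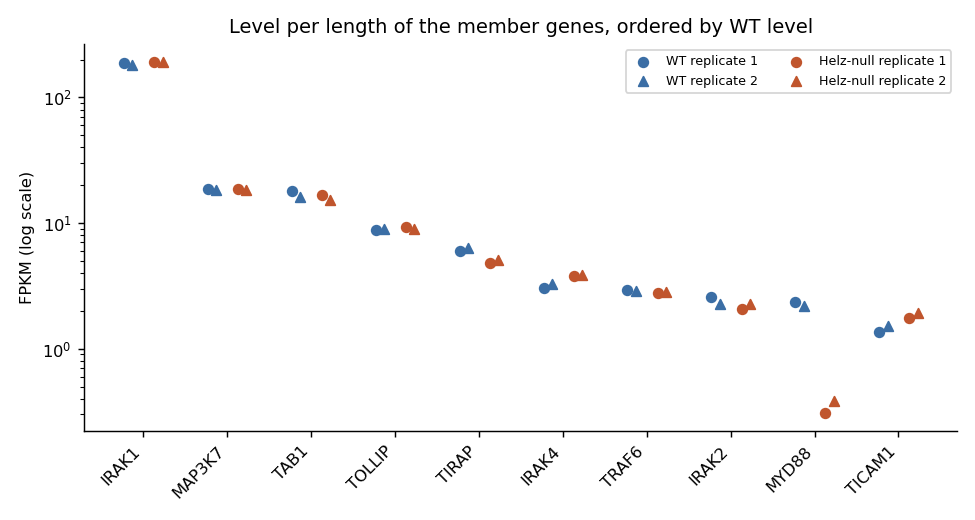
FPKM of the 10 genes in each library on a log axis, ordered by the WT mean, with WT in blue and Helz-null in orange. Levels run from 184.9 FPKM for IRAK1 to 1.44 FPKM for TICAM1 in WT, and MYD88 is at 2.27 FPKM in WT and at 0.343 FPKM in Helz-null cells.

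Most of the tested genes around MYD88 on the chromosome were lower in Helz-null cells as well, but by far less. Within 2 Mb on either side 13 genes were tested, of which 9 were called down and 0 up, 69.2% down beside 15.5% over all tested genes. With DESeq2, without each library in turn and under the other alternatives between 8 and 10 were called down. No neighbour was above WT at an unadjusted edgeR p under 0.05 (0 genes) or with DESeq2 (0 genes). The median log2FC was -0.28, and 12 of the 13 were below 0. The nearest, ACAA1, a peroxisomal thiolase whose gene starts 1310 bases from that of MYD88 on the opposite strand, was called down at -0.19 (SE 0.054; edgeR FDR 0.00484). That call was lost without WT replicate 1 (-0.11) or Helz-null replicate 2 and in 4 of the other alternatives. Downstream of MYD88, OXSR1, an oxidative stress-responsive kinase, was called down at -0.25 (SE 0.040; edgeR FDR 1.79e-06), XYLB at -0.35, the activin receptor gene ACVR2B at -0.35 and EXOG at -0.41. GOLGA4 at -0.32 and LRRFIP2 at -0.28 were called down upstream of it, while CTDSPL at 0.05 and WDR48 at -0.07 were not called. The lowest was RPSA, encoding a protein of the small ribosomal subunit, at -0.54 (SE 0.026; edgeR FDR 2.80e-20). No neighbour came near the -2.69 of MYD88. Besides MYD88 the window holds 38 genes of the count table, tested or not, 8 of them with at most 3 counts in each library.

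IRAK2 lies on the same chromosome arm. Of its 26 tested neighbours 14 were called down and 0 up (1 up at an unadjusted edgeR p under 0.05, 0 up with DESeq2), 53.8% down beside 15.5% of all tested genes. Their median log2FC was -0.19, and IRAK2 itself at -0.16, or -0.24 to -0.051 with 1 library left out, lay within their range of -0.51 to 0.10. The lowest of them were TTLL3 at -0.51, THUMPD3 at -0.47 and the von Hippel-Lindau gene VHL at -0.42. Around the other 8 genes the medians were between -0.011 and 0.075, with between 0% and 29.7% of the neighbours called up (11 of 37 around TOLLIP) and between 0% and 27.3% called down (3 of 11 around IRAK4), beside 13.9% and 15.5% of all tested genes. TIRAP had a log2FC of -0.32 among neighbours with a median of 0.055, and IRAK4 had 0.28 among neighbours with a median of 0.013.

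**Figure D3:**
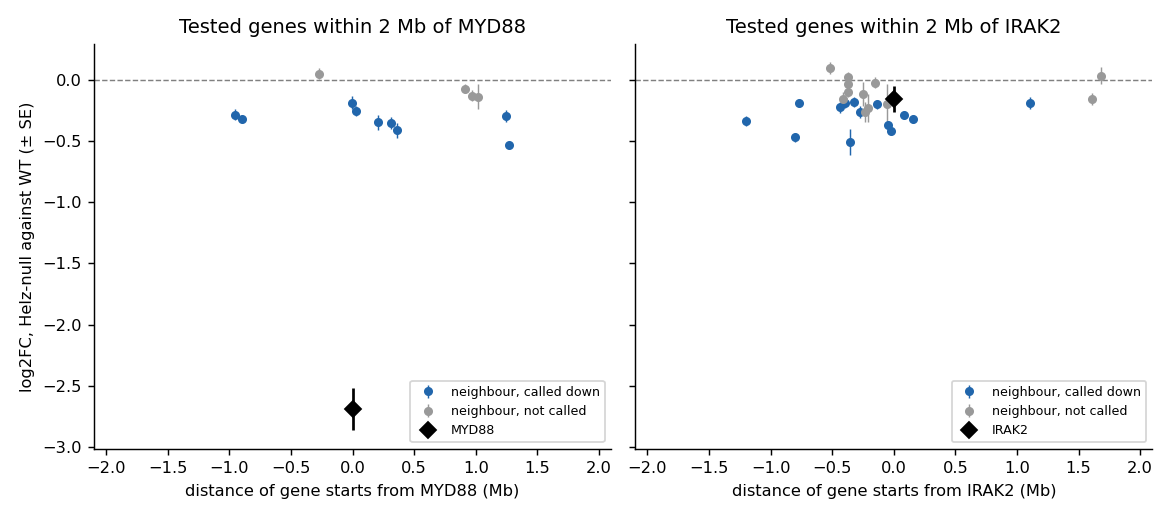
log2FC of Helz-null against WT with its SE for tested genes within 2 Mb of MYD88 (left) and IRAK2 (right), against the distance of gene starts in Mb, with genes called down in blue and genes not called in grey. In both panels the neighbours lie mostly between 0 and -0.54, and MYD88 at -2.69 lies far below its own neighbours whereas IRAK2 at -0.16 lies among them.

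The tested genes whose pattern over the 4 libraries was most like that of MYD88 were found by the Euclidean distance of log2 CPM values after the mean of each gene was removed. They were UNCX, a homeobox gene (distance 0.207), BST2, which encodes the virus-restricting membrane protein tetherin (0.342), OSTN, which encodes the secreted peptide osteocrin (0.536), ALDH1A2, an enzyme of retinoic acid synthesis (0.755), and HSPA1A, a heat-inducible chaperone (0.759). BST2 had 10.1 and 10.3 CPM in WT and 1.80 and 2.13 CPM in Helz-null cells, and UNCX had 3.47 and 3.48 CPM in WT and 0.426 and 0.477 CPM in Helz-null cells. Both thus sat within a few CPM of MYD88 in each cell line. With 2 libraries per group, a small distance requires a log2FC near that of MYD88, the value by which MYD88 was chosen. The likeness is therefore a description and carries no test. With a mean FPKM above 2 as the filter UNCX, OSTN and HSPA1A, like MYD88, are not tested. HSPA1A has a near-identical copy in HSPA1B, so that its counts are uncertain, and OSTN had only 4 and 12 counts in the Helz-null libraries and was not called without WT replicate 2.

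The Toll-like receptors themselves were barely detected. All 10 receptor genes TLR1 to TLR10 fell outside the tested genes, and TLR2, TLR4 and TLR8 were at 0 counts in all 4 libraries, which allows up to 3 counts, at most 0.0716 CPM, in each. TLR6 was the highest, at 1.20 and 1.503 CPM in WT and 1.25 and 0.786 CPM in Helz-null cells, and TLR5 had between 0.497 and 0.795 CPM in the 4 libraries. Values of both overlapped between the groups. TLR3, the receptor of double-stranded RNA that signals through TICAM1 and not MYD88, was counted 41 and 29 times in WT and 4 and 20 times in Helz-null cells. That is 0.639 and 0.692 CPM against 0.0947 and 0.281 CPM, with both Helz-null libraries below both WT libraries. In the fit with a lower limit on counts, in which 9.83% of 16087 genes were called up and 11.5% down, TLR3 was called down with a log2FC of -1.67 (SE 0.45; edgeR FDR 0.00358). This call was lost without WT replicate 1 (edgeR FDR 0.00872), WT replicate 2 (0.00824) or Helz-null replicate 1 (0.0518, at a log2FC of -1.24) and kept without Helz-null replicate 2 (-2.78). TLR1 had 15 and 6 counts in WT and 1 and 8 in Helz-null cells, and TLR7, TLR9 and TLR10 had at most 8 counts in any library.

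**Figure D4:**
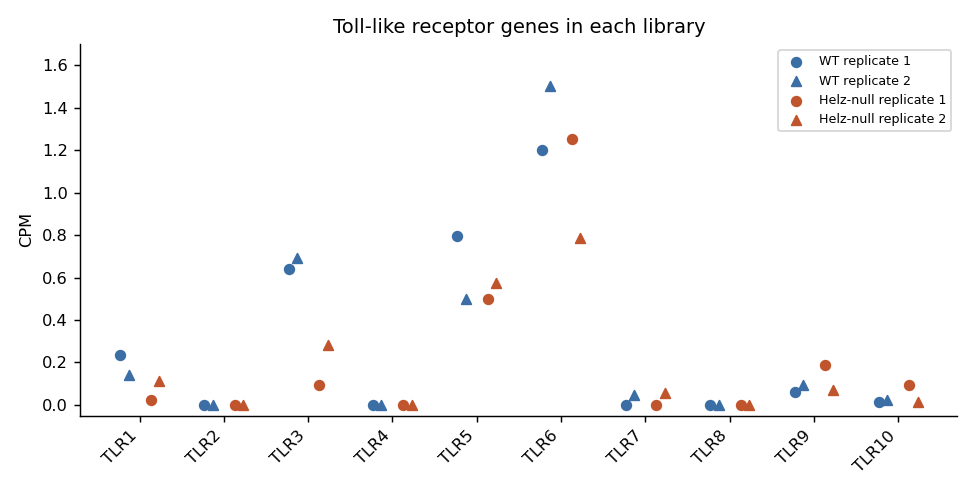
CPM of TLR1 to TLR10 in each library, with WT in blue and Helz-null in orange, replicate 1 as circles and replicate 2 as triangles. No receptor passes 1.503 CPM, TLR2, TLR4 and TLR8 lie at 0, and TLR3 is the receptor whose Helz-null libraries lie farthest below WT.

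The rest of the pathway was listed by known role in 9 lists of 113 genes, of which 61 were tested. Of these, 5 were called up, 8 down and 48 not, 8.20% up and 13.1% down, beside 13.9% and 15.5% of all tested genes. The median log2FC was 0.017. With library totals as the only scaling, which moved the median of all genes to 0.032, 11 were called up and 5 down. For all genes that scaling changed the share of up among the calls from 47.3% to 61.7%. Without each library in turn the counts lay between 2 and 7 up and between 3 and 7 down, lowest for up without Helz-null replicate 1 and for down without WT replicate 1 or Helz-null replicate 2.

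Close to the receptors, none of 4 tested accessory genes (UNC93B1, HSP90B1, CNPY3 and CNPY4, which bring receptors to their place) was called by edgeR or DESeq2, with 1 higher and 0 lower at an unadjusted edgeR p under 0.05, where 13.9% of all tested genes were called up and 15.5% down. In the interleukin-1 receptor family, SIGIRR, an inhibitory member, was the one tested gene and was called down at -0.31 (edgeR FDR 0.00216). IL1RL1 and IL1RL2 were at 0 counts in all libraries. The fit with a lower limit on counts tested 4 further genes of the family, with 0 called up and 0 down. In that fit 9.83% of all genes were called up and 11.5% down. IL1R1 had 1.90 and 1.67 CPM in WT and 2.58 and 2.96 CPM in Helz-null cells, at a log2FC of 0.63. IL1R2 stood at 1.40, IL1RAP at -0.093 and IL18R1 at -0.30. SIGIRR lost its call without WT replicate 1, Helz-null replicate 1 or Helz-null replicate 2, with library totals and with DESeq2.

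Among 9 tested adaptors and IRAK partners 1 was called up and 2 down (11.1% and 22.2%, beside 13.9% and 15.5% of all tested genes), with a median log2FC of -0.0061. PELI2, a Pellino ubiquitin ligase that acts on IRAK1, rose from 21.6 and 24.1 CPM to 30.5 and 27.2 CPM (log2FC 0.34, edgeR FDR 6.28e-05). TICAM2, the bridge between TLR4 and TICAM1, fell from 10.003 and 10.1 CPM to 7.93 and 7.52 CPM (-0.38, edgeR FDR 0.00184), but lost its call without each of the 4 libraries in turn and with DESeq2. TRAF3, the ligase of the interferon branch, fell from 85.7 and 83.1 CPM to 76.5 and 74.8 CPM (-0.16, edgeR FDR 6.44e-04). PELI2 lost its call without Helz-null replicate 1, and TRAF3 without WT replicate 1 or Helz-null replicate 2, with library totals and with DESeq2.

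At TAK1 and below, 1 of 12, 1 of 10 and 2 of 14 tested genes of the 3 lists were called, where 29.4% of all tested genes were. Of 12 tested ubiquitin and TAK1 partners only TAB3, an adaptor of TAK1, was called, up at 0.17 (edgeR FDR 0.00355). TAB3 was not called without WT replicate 2, Helz-null replicate 1 or Helz-null replicate 2, with DESeq2 or with filterByExpr. Of 10 genes of the IKK and NF-kappaB group NFKB2, the precursor of p52, was called, from 22.9 and 23.1 CPM up to 29.2 and 30.1 CPM (log2FC 0.37, edgeR FDR 3.20e-06). Of 14 MAP kinase genes MAP2K1 (MEK1) fell from 93.6 and 99.6 CPM to 71.8 and 75.7 CPM (-0.38, edgeR FDR 1.10e-10), and MAPK3 (ERK1) rose by 0.14 on the log2 scale (edgeR FDR 0.00322), a call lost without WT replicate 1, Helz-null replicate 1 or Helz-null replicate 2, with DESeq2, with filterByExpr and with at least 1 count as the filter.

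In the interferon arm 1 of 7 tested genes was called up, 1 down and 5 not. That is 14.3% up and 14.3% down, beside 13.9% and 15.5% of all tested genes. IKBKE, the kinase that works with TBK1, rose from 8.10 and 6.97 CPM to 12.1 and 12.3 CPM. Its log2FC of 0.68 (SE 0.098; edgeR FDR 2.72e-07) was the highest of the 61 tested pathway genes. AZI2, an adaptor of TBK1, fell from 57.4 and 61.7 CPM to 51.5 CPM in both Helz-null libraries (-0.21, edgeR FDR 2.86e-04), and lost its call without WT replicate 2. Of the 13 called pathway genes, IKBKE, NFKB2 and MAP2K1 kept their calls without each library in turn and under the other alternatives tried.

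Of 24 listed NF-kappaB target genes 5 were tested. None was up at an unadjusted edgeR p under 0.05 (0 genes) or with DESeq2 (0 genes). With edgeR 3 were called down and 0 up, 60.0% and 0% beside 15.5% and 13.9% of all tested genes. The 3 were the inhibitor of apoptosis BIRC2 (log2FC -0.24, edgeR FDR 1.31e-04), the survival gene BCL2L1 (-0.22, edgeR FDR 0.00230) and the mitochondrial superoxide dismutase SOD2 (-0.17, edgeR FDR 2.47e-05), while NFKBIA at 0.06 and CSF1 at 0.13 were not called. Without WT replicate 1 BIRC2 and BCL2L1 were not called, and without Helz-null replicate 2 BCL2L1 and SOD2 were not called. The log2FC of BCL2L1 was -0.12 without WT replicate 1, and it was also not called with library totals or DESeq2. The inflammatory genes CXCL10, CCL2 and IL1B were at 0 counts in all 4 libraries. In the fit with a lower limit on counts 9 further targets were tested, with 0 called up and 2 down. Their median log2FC was -0.12, and in that fit 9.83% of all genes were called up and 11.5% down. Above 0 but not called were BIRC3 at 0.65, CXCL3 at 0.37 and ZC3H12A at 0.15. Below 0 and not called were CXCL2 at -1.02, CCL5 at -0.40, TNFAIP3 at -0.12 and NFKBIZ at -0.06. Those called were TNFAIP2 at -1.08 (edgeR FDR 4.52e-06), with 3.97 and 4.46 CPM in WT and 2.25 and 1.80 CPM in Helz-null cells, and PTGS2, which encodes cyclooxygenase, at -1.06 (edgeR FDR 1.67e-04), with 2.65 and 2.46 CPM in WT and 1.44 and 1.08 CPM in Helz-null cells. The call of PTGS2 was lost without Helz-null replicate 2.

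**Figure D5:**
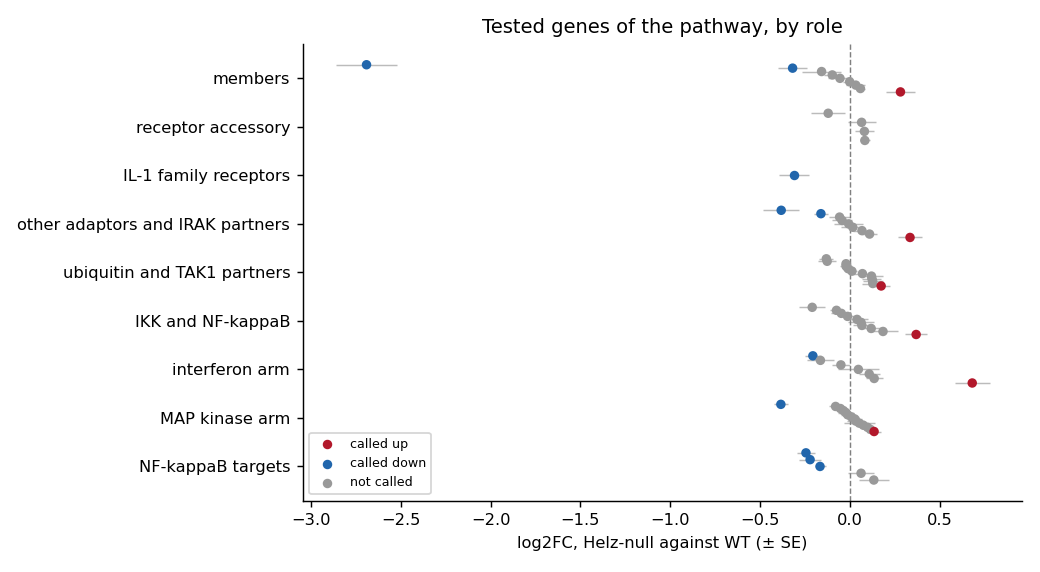
log2FC of Helz-null against WT with its SE for tested genes, 1 line for each role, with genes called up in red, called down in blue and not called in grey. MYD88 at -2.69 lies alone on the left, and the 61 other pathway genes lie between -0.38 and 0.68.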

How the data were processed

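RNA-Seq read counts per gene of 4 HEK293T libraries, 2 WT and 2 Helz-null, were used as deposited, without normalization. The authors filtered out rRNA with Bowtie2, placed the remaining read pairs on hg19 (TopHat2) and counted them per gene (QuasR). Versions, annotation, the use of strand and the counting of mates are not given in the sources used here. The 4 columns of the deposited comparison (log2 fold change, log2 CPM, p-value and FDR) were not used; its 10978 gene symbols set which genes were tested.

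Counts were tested in R 4.3.3 with edgeR 4.0.16 (TMM, glmQLFit and glmQLFTest, genotype as the only term, Benjamini-Hochberg over tested genes) and called at an FDR under 0.005. Library sizes were totals over 27011 genes. Depth was 41745401 to 70464140 counts per library, so that 3 counts correspond to 0.0421 to 0.0716 CPM. FPKM is CPM divided by the deposited gene width in kilobases. SEs were derived from the log2FC and the F statistic. Scripts were tested on simulated data. Alternatives were library totals, DESeq2 1.42.0, other filters (filterByExpr, at least 1 count, mean FPKM above 2), a replicate block, each library left out, counts divided by 2 and an FDR under 0.05. For TLR3, TNFAIP2 and PTGS2, leaving out a library was added after seeing the data.

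Named genes were the 10 genes, HELZ, TLR1 to TLR10, up to 4 called genes per list and direction with groups that do not overlap, genes of a list at 0 counts, up to 5 tested genes on each side of MYD88, and 5 genes of like pattern. RPSA, TTLL3, THUMPD3, VHL, TNFAIP2, PTGS2, the cell line markers given by name and genes given as not called were added after their values were seen. The genes and lists were chosen with earlier results of these data known. Positions are GENCODE v44lift37 on GRCh37, and promoter windows are RefSeq on GRCh38.p14.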

Additional observations from a re-analysis of the deposited data

How the results depend on the processing

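With 2 libraries per group, no search for a library that stands apart within a group was possible, and of the 13 called pathway genes 3 kept their call without each library in turn. At an FDR under 0.05, 2371 genes were called up and 2506 down, and 11 pathway genes up and 11 down. With library totals 2123 of all genes were called up and 1317 down, 2 of the 10 genes and 11 pathway genes up and 5 pathway genes down. With DESeq2 1102 of all genes were called up and 1288 down, 0 of the 10 genes were called up and 1 down, and 3 pathway genes up and 4 down. With filterByExpr 3 of 90 tested pathway genes were called up and 11 down, beside 9.83% and 11.5% of all genes, and at a mean FPKM above 2 only 1 of the 10 genes was called down, since MYD88 no longer enters that test. Leaving out 1 library gave 0 to 1 of the 10 genes up and 1 to 2 down, and 2 to 7 pathway genes up and 3 to 7 down. MAP3K7 changed sign around 0, with a log2FC of 0.033 with library totals, 0.0012 with DESeq2, 0.00083 at a mean FPKM above 2, 9.77e-05 with the replicate block, and -0.0057 to 0.0067 without 1 library. The log2FC of HELZ stayed between -1.47 and -1.41. The cause of these shifts was not tested.

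The replicate numbers in the labels name replicates and no shared batch or day. Deviations of same-numbered libraries correlated at 0.034 over 10978 genes. With the replicate block 1677 genes were called up and 1841 down, 1 of the 10 genes up and 2 down, 5 pathway genes up and 9 down, and 0 neighbours of MYD88 up and 9 down.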
